A study of Mus musculus with 6 samples.

Results

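The genes described here are 5 related homeodomain genes (*Six2*, *Six3*, *Six4*, *Six5* and *Six6*) and 4 genes of their coactivators (*Eya1*, *Eya2*, *Eya3* and *Eya4*) of the mouse. They were chosen by name, and these 9 genes are 9 of the 38553 genes in the deposited expression table. RNA-Seq was performed on poly(A)+ RNA of craniofacial tissue microdissected at E12.5. The 3 control embryos were *Rbfox2* flox/flox, and the 3 *Rbfox2* mutant embryos were *Pax3*Cre/+:*Rbfox2* flox/flox, so that both groups carried the floxed alleles of the splicing regulator *Rbfox2* and the mutants alone carried Cre. The comparison asks which transcript levels change when *Rbfox2* is deleted in the *Pax3* lineage. Cre is inserted in the *Pax3* gene and acts in neural crest and in derivatives of the paraxial mesoderm, not in every cell of the dissected tissue, and the loss of *Rbfox2* cannot be told apart from the presence of the Cre allele. The tissue was sequenced whole, so fewer cells of a type and less RNA per cell cannot be told apart.

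The proteins of *Six2* to *Six6* are transcription factors of a single family, with a homeodomain, which binds DNA, and a neighbouring domain through which they bind partners. Eya proteins do not bind DNA themselves. They are recruited by these factors and act as coactivators, and they are also protein phosphatases with a catalytic aspartate. Together with Pax and Dach proteins the families form a regulatory network used in sensory placodes, muscle precursors, kidney and head mesenchyme, and Groucho corepressors (the Tle proteins) turn some of the homeodomain factors into repressors.

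The part of each coding sequence that the members share most recognisably is shown because it is what makes them families, and because shared sequence bears on how well reads can be assigned to single members. Each window of 60 bases lies within 1 coding exon of GRCm38 and is read 5′ to 3′ on the strand of the gene, from the GENCODE annotation. In the windows of *Six2* to *Six6*, which end in the codons of the DNA-contacting helix of the homeodomain, capitals mark the 37 of 60 bases that are identical in all 5 genes:
Six2 (chr17:85687425-85687484, minus strand): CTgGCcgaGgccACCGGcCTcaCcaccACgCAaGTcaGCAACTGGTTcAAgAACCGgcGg
Six3 (chr17:85621957-85622016, plus strand): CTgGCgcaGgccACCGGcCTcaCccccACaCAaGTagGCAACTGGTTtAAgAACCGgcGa
Six4 (chr12:73112381-73112440, minus strand): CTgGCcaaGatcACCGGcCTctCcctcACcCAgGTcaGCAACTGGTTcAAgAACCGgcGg
Six5 (chr7:19095315-19095374, plus strand): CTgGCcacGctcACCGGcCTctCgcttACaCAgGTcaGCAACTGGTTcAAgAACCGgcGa
Six6 (chr12:72940536-72940595, plus strand): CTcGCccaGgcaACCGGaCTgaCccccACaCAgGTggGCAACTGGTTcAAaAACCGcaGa

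In the *Eya* windows, which start at the phosphatase motif with the catalytic aspartate, capitals mark the 38 of 60 bases identical in all 4 genes:
Eya1 (chr1:14229505-14229564, minus strand): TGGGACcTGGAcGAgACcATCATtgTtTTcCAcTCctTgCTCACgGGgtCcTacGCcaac
Eya2 (chr2:165731565-165731624, plus strand): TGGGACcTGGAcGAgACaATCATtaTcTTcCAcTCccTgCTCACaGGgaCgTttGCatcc
Eya3 (chr4:132699042-132699101, plus strand): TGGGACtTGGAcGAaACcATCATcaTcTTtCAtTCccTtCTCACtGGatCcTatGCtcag
Eya4 (chr10:23138203-23138262, minus strand): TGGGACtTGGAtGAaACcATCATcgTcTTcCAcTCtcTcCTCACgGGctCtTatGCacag

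*Six4* and *Six5* were alike at 54 of the 60 bases, the most of any pair among the homeodomain genes. Over the aligned proteins they shared 263 of 679 residues (38.7%), the lowest share but the largest number of any such pair. *Six3* and *Six6* had the highest share of identical residues, 79.3% of the 246 residues that could be aligned. The *Six3* protein has 347 residues, so the share does not cover all of it. Among the *Eya* genes the highest share was that of *Eya1* and *Eya4*, with 75.1% of aligned residues identical. For each gene the transcript with the longest complete coding sequence was taken. The longest run of sequence common to any pair of these within a family was 32 bases, between *Six2* and *Six4*. This is shorter than a sequenced read, so in these transcripts a whole read could not match 2 members of a family without a mismatch. Other transcripts of the genes were not compared.

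Gene positions follow the same annotation. *Six2* (ENSMUSG00000024134) lies at chr17:85684277-85688274 and *Six3* (ENSMUSG00000038805) at chr17:85613608-85629302, with start sites 74.7 kb apart on opposite strands. *Six6* (ENSMUSG00000021099, chr12:72939892-72944899) and *Six4* (ENSMUSG00000034460, chr12:73099609-73113456) form a second linked pair, with start sites 174 kb apart. *Six5* (ENSMUSG00000040841) lies at chr7:19094594-19098549. The *Eya* genes are spread over separate chromosomes and are longer: *Eya1* (ENSMUSG00000025932) at chr1:14168954-14310235, *Eya2* (ENSMUSG00000017897) at chr2:165595032-165771727, *Eya3* (ENSMUSG00000028886) at chr4:132638987-132724765 and *Eya4* (ENSMUSG00000010461) at chr10:23102963-23350786.

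Levels are given in FPKM, fragments mapped to a gene scaled by its length and by all mapped fragments of the sample, which allows genes of different length to be set side by side. A difference is mutant minus control on the scale of log2(FPKM + 1), tested with limma over 10061 genes, those above 5 FPKM in the 3 controls, in the 3 mutants or in both. *Six4* and *Six6* did not pass that filter and were read from the fit of all 23063 genes with an FPKM above 0. The deposited values do not give the read count behind each gene, so no counting error is attached to them.

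The targeted gene was lower in every mutant. *Rbfox2* was at 58.4, 65.0 and 61.3 FPKM in control replicates 1 to 3 and at 38.1, 36.3 and 34.3 in mutant replicates 1 to 3, a mutant mean of 58.8% of the control mean. Its log2 difference was -0.75 (SE 0.079, adjusted p = 0.138 by limma), and the exact permutation test gave p = 0.10, the smallest that 3 samples against 3 allow. Replicate 1 of each group stood apart from the other samples, at -19.1 and -17.0 on the first principal component (54.7% of the variance) against 7.55 to 11.0, and the labels name no batch. Y-linked transcripts were near 0 in all controls and mutant 3 (summed FPKM of 4 genes 0.0989 to 0.217) and at 57.7 and 55.5 in mutants 1 and 2. By these levels mutants 1 and 2 were male and no control was. Sex was thus not balanced between the groups and is partly mixed with genotype.

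*Six2* was the most abundant member, and the 9 genes spanned from 84.7 FPKM for *Six2* to 2.23 for *Six6* in control means. In falling order the control means were *Six2* 84.7 ± 16.2, *Eya3* 26.2 ± 3.91, *Eya2* 20.6 ± 1.87, *Six5* 17.9 ± 1.45, *Eya1* 12.3 ± 0.789, *Eya4* 10.7 ± 1.62, *Six3* 7.79 ± 2.31, *Six4* 4.07 ± 0.263 and *Six6* 2.23 ± 0.117 FPKM (SD, n = 3). *Six2* stood 3.24-fold above the next gene with no overlap in any of the 6 samples. *Six3* and *Six4* (1.92-fold) and *Six4* and *Six6* (1.82-fold) were also apart in all 6 samples. *Six5* and *Eya1* (1.45-fold) were apart in the controls but overlapped once the mutants were included. The neighbours *Eya3* and *Eya2*, *Eya2* and *Six5*, *Eya1* and *Eya4*, and *Eya4* and *Six3* overlapped within the controls, so their order is not larger than the spread between replicates. The 9 means added up to 186 FPKM in controls and 187 FPKM in mutants.

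**Figure D1:**
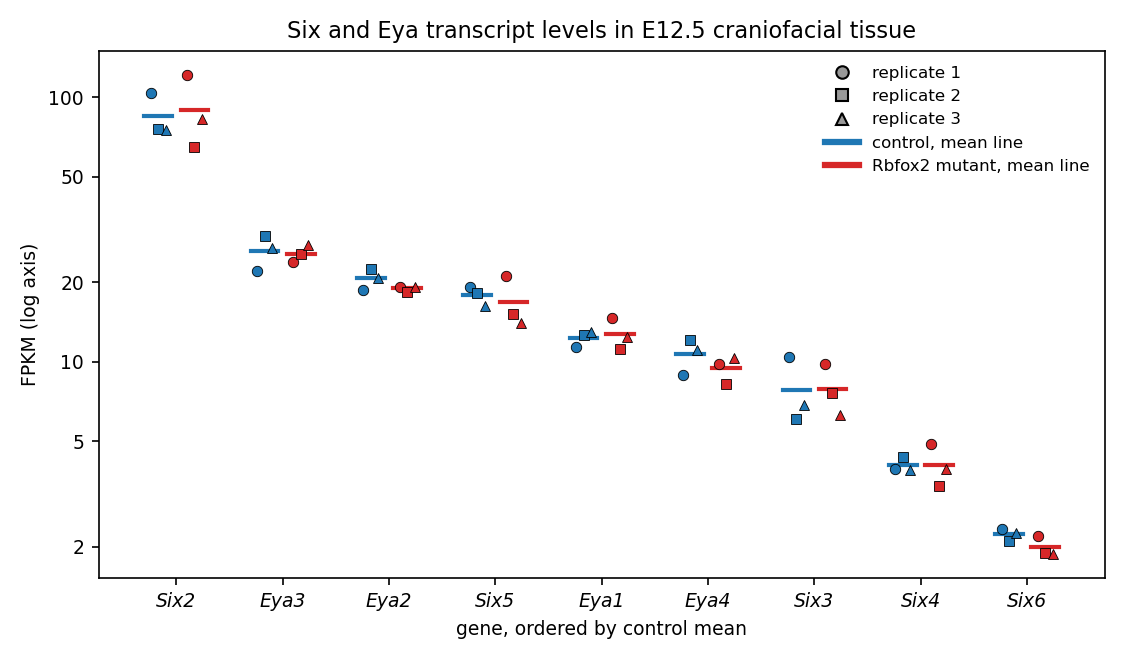
FPKM (log axis) of the 9 genes, ordered by control mean, in each of 3 control (blue) and 3 mutant (red) samples, with marker shapes for the replicate number and lines for group means. The groups overlap for every gene, and replicate 1 is the highest sample of its group for *Six2*, *Six3*, *Six5* and *Six6*.

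No difference between the genotypes was detected for any of the 9 genes. All had an adjusted p of 1.0 by limma over all genes tested, 0 of 9 reached an unadjusted p of 0.05, and the groups overlapped for all 9. Among all 10061 genes tested, 0% passed the adjusted threshold, 1.66% the unadjusted threshold (0.706% higher and 0.954% lower in mutants), and 5% had groups that did not overlap. With the replicate number as a block, the genes past the unadjusted threshold rose from 167 to 604, and the members past it stayed at 0. The log2 difference was above 0 for 3 members and below 0 for 6. Over the 7 members that passed the filter its median was -0.022 and its median size 0.048, beside a median size of 0.054 over all genes tested. The 95% intervals of the 9 genes all included 0, and the widest, that of *Six2*, reached from -0.51 to 0.60.

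**Figure D2:**
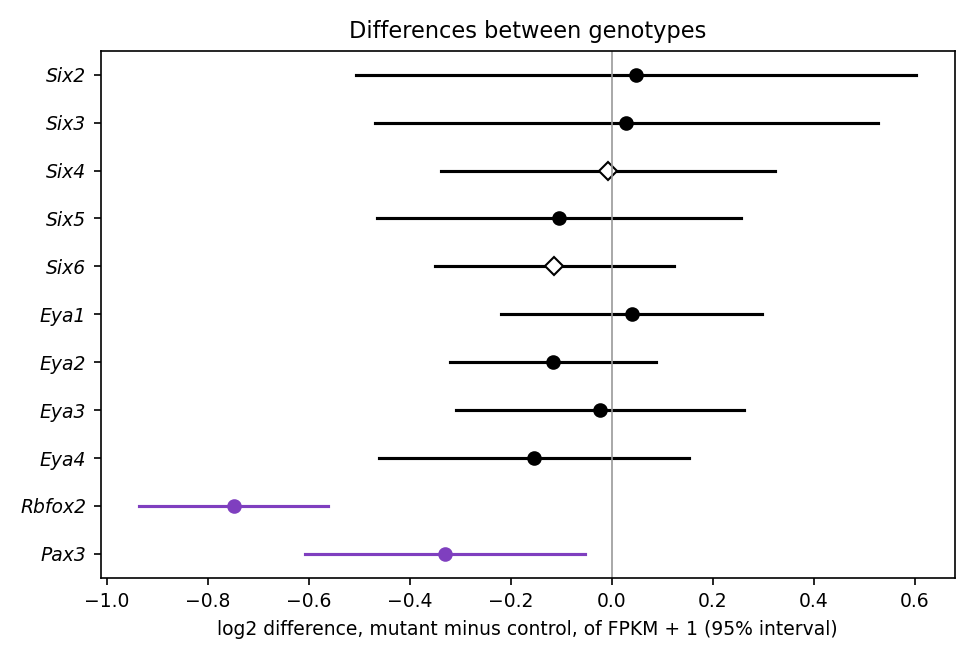
Log2 difference of FPKM + 1, mutant minus control, with its 95% interval from limma, for the 9 genes in black and for *Rbfox2* and *Pax3* in purple; open diamonds are genes that did not pass the FPKM filter. All 9 black intervals cross 0, and those of *Rbfox2* and *Pax3* lie below it.

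*Six2*, which maintains progenitor cells in the kidney and is expressed in facial mesenchyme, was at 103, 75.8 and 74.9 FPKM in controls and 121, 64.9 and 82.3 in mutants. Its highest samples were replicate 1 of each group, and its lowest was mutant 2. The means of 84.7 ± 16.2 and 89.6 ± 29.0 FPKM (SD, n = 3) gave a log2 difference of 0.048 (SE 0.235, exact permutation p = 0.80). The interval of the difference, from -0.51 to 0.60, spans folds from 0.704 to 1.52 and was the widest of the 9.

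*Six3* and *Six6*, the closely related pair, are best known from the developing forebrain and eye. *Six3* was at 10.4, 6.09 and 6.85 FPKM in controls and 9.80, 7.58 and 6.28 in mutants, and replicate 1 was again highest in both groups. Its log2 difference was 0.028 (SE 0.211, exact permutation p = 0.90). The gene span of *Six3*, introns included, overlaps that of *Six3os1*, a transcript of the opposite strand, by 4791 bases. How much of this lies in exons was not counted. The library kit kept strand, but the strand setting of the counting is not given in the sources used here, so reads of these genes may not be separated. *Six3os1* was at 17.5, 15.3 and 15.3 FPKM in controls and 16.4, 15.6 and 17.7 in mutants (log2 difference 0.048, SE 0.0889).

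*Six6* was at 2.33, 2.10 and 2.25 FPKM in controls and 2.18, 1.90 and 1.88 in mutants. Its mutants were lower within each replicate number, by 0.066, 0.099 and 0.18 on the log2 scale. Its means differed by more than the larger SD (2.23 ± 0.117 against 1.99 ± 0.172 FPKM, n = 3). The share of all genes with these traits was not counted, and *Six6* did not pass the filter. The groups still overlapped, because mutant 1 was above control 2. The log2 difference was -0.11 (SE 0.0971, interval -0.35 to 0.12, exact permutation p = 0.20). The gene span of *Six6*, introns included, overlaps that of the opposite-strand gene *4930447C04Rik* by 883 bases.

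*Six4* and *Six5* encode the longer proteins of their family. *Six4*, which acts in muscle and sensory ganglia, was at 3.94, 4.37 and 3.89 FPKM in controls and 4.87, 3.40 and 3.94 in mutants, with mutant 1 highest and mutant 2 lowest. Its means were both 4.07 FPKM (SD 0.263 and 0.746), with a log2 difference of -0.0074 (SE 0.136). *Six5*, which lies next to the gene mutated in myotonic dystrophy, was at 19.2, 18.2 and 16.3 FPKM in controls and 21.2, 15.2 and 14.0 in mutants. Mutant 1 was above every control and mutants 2 and 3 were below every control. The log2 difference was -0.10 (SE 0.153, exact permutation p = 0.70).

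*Eya1*, the gene of branchio-oto-renal syndrome, was at 11.4, 12.6 and 12.9 FPKM in controls and 14.6, 11.2 and 12.3 in mutants. Mutant 1 was again the highest sample, and the log2 difference was 0.040 (SE 0.11, exact permutation p = 0.90). *Eya3*, a broadly expressed member, was at 22.0, 29.7 and 26.8 FPKM in controls and 23.8, 25.5 and 27.6 in mutants. Here replicate 1 was the lowest sample of each group, the reverse of *Six2*, *Six3* and *Six5*. Its log2 difference was -0.022 (SE 0.121, exact permutation p = 1.0).

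*Eya2* and *Eya4* were the members of the filtered table with the smallest unadjusted p. *Eya2*, a coactivator in muscle precursors and placodes, was at 18.7, 22.4 and 20.8 FPKM in controls and 19.2, 18.4 and 19.2 in mutants. The mutants were close together and all of them were within or just below the range of the controls (20.6 ± 1.87 against 18.9 ± 0.469 FPKM, SD, n = 3). The log2 difference was -0.12 (SE 0.0862, interval -0.32 to 0.087, limma p = 0.219, exact permutation p = 0.30). *Eya4*, in which mutations cause hearing loss, was at 8.87, 12.0 and 11.1 FPKM in controls and 9.80, 8.26 and 10.3 in mutants. Control 1 was the second lowest sample, and the log2 difference was -0.15 (SE 0.130, interval -0.46 to 0.15, limma p = 0.277, exact permutation p = 0.40).

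The replicate number moved with the levels of several members more than genotype did, and median sizes over all genes tested went the same way. Its difference was taken between replicate 1 and the other replicates, over both groups. On the log2 scale replicate 1 was higher by 0.59 for *Six2*, 0.53 for *Six3*, 0.33 for *Six5*, 0.14 for *Six4*, 0.11 for *Six6* and 0.072 for *Eya1*. For *Eya2*, *Eya4* and *Eya3* the differences were -0.082, -0.13 and -0.25. The median size over the 7 members that passed the filter was 0.25, beside 0.16 over all genes tested. For the genotype difference the median sizes were 0.048 and 0.054, so a larger replicate difference was not particular to the members. These differences carry no test, since replicate 1 was singled out after the values of all genes were seen.

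**Figure D3:**
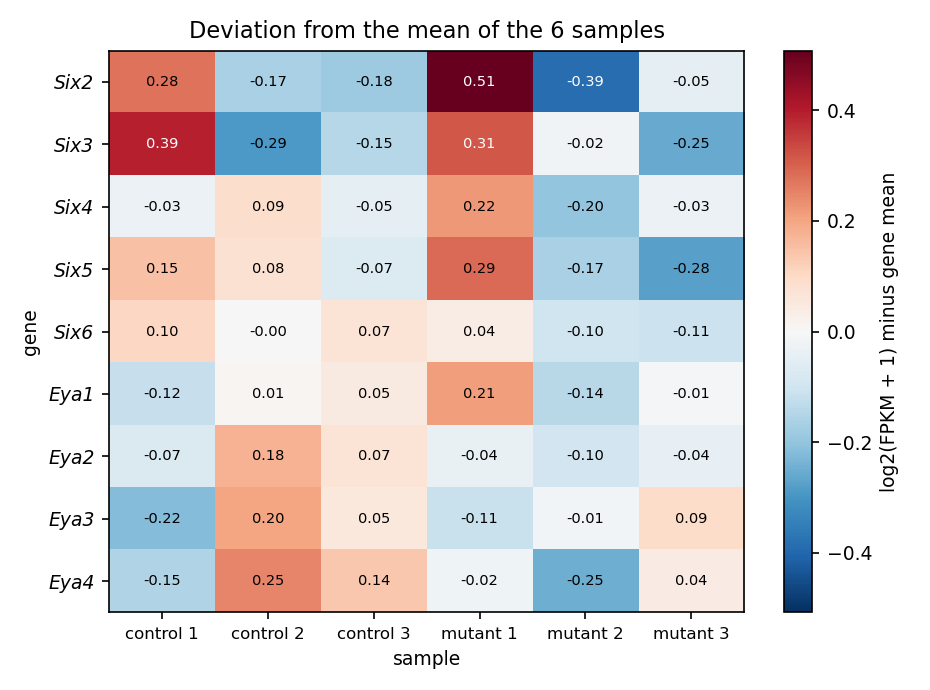
Log2(FPKM + 1) of each gene in each sample minus the mean of that gene over the 6 samples (colour and printed value). The columns of control 1 and mutant 1 are above the mean for *Six2*, *Six3*, *Six5* and *Six6* and below it for *Eya2*, *Eya3* and *Eya4*.

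Within the replicate numbers the genotype differences did not point 1 way. Between the replicates numbered 1 they ranged from -0.080 for *Six3* to 0.33 for *Eya1*, between those numbered 2 from -0.49 for *Eya4* to 0.27 for *Six3*. Between the replicates numbered 3 the range was -0.21 for *Six5* to 0.13 for *Six2*. Each of these sets 1 sample against 1, and the share of all genes going either way was not counted. With replicates 2 and 3 only, *Six5* (-0.22), *Eya2* (-0.19) and *Eya4* (-0.30) were lower in mutants at an unadjusted limma p of 0.05. In that fit 5.74% of all genes were lower at this threshold, and 11% passed it in either direction. Without control 1 alone *Eya4* was at -0.27, and without mutant 1 alone *Six5* was at -0.27, each past the same threshold, where 3.75% and 2.11% of all genes were lower. None of these reached an adjusted p of 0.05.

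A list of 27 other genes of the network was read beside the members, of which 18 passed the filter. Of these 18, 1 (*Pax3*) reached an unadjusted p of 0.05 (1.66% of all genes tested) and 0 an adjusted p of 0.05. The groups did not overlap for 2, *Pax3* and *Myod1* (5% of all genes tested). The 10 network partners comprised Pax and Dach factors and *Sobp*, and 6 passed the filter with a median log2 difference of -0.077. *Pax3*, a regulator of neural crest and muscle precursors and the gene that carries Cre, was at 8.83, 11.9 and 11.1 FPKM in controls and 8.62, 7.59 and 8.36 in mutants. All mutants were below all controls (log2 difference -0.33, SE 0.118, exact permutation p = 0.10, adjusted p by limma 1.0). Cre is inserted in this gene in the mutants alone, and the part of the insertion in the lower level was not tested. *Pax9*, needed for palate and tooth formation, and *Pax1*, a factor of the pharyngeal pouches and sclerotome, had differences of -0.24 (SE 0.138) and -0.28 (SE 0.173) and did not pass the test.

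Of 6 Groucho corepressors 5 passed the filter, 0 reached an unadjusted p of 0.05, and the median log2 difference was 0.038. *Tle2* was at 16.5, 15.7 and 10.6 FPKM in controls and 13.2, 7.37 and 9.18 in mutants, with control 3 below mutant 1 (log2 difference -0.49, SE 0.23). *Tle3* was at 0.081 and *Tle6* at 0.18 on the same scale. The list of genes proposed as targets of these factors held 11 genes, of which 7 passed the filter and 0 reached an unadjusted p of 0.05, with a median of 0.064. Its myogenic factors *Myod1* and *Myog*, which drive muscle differentiation, had differences of -0.33 (SE 0.147) and -0.38 (SE 0.216). *Slc12a2*, a chloride cotransporter, was at -0.083 (SE 0.0805).

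**Figure D4:**
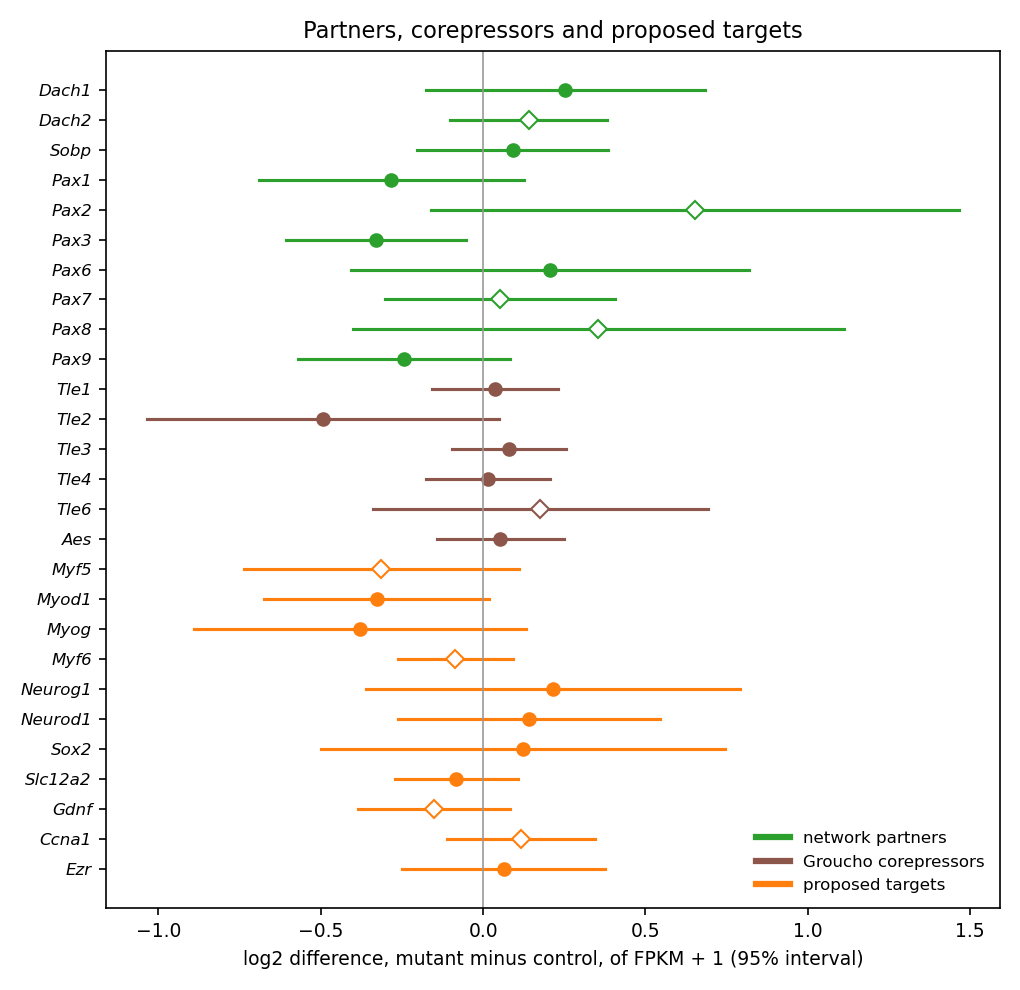
Log2 difference of FPKM + 1, mutant minus control, with its 95% interval from limma, for 10 network partners (green), 6 Groucho corepressors (brown) and 11 proposed targets (orange); open diamonds did not pass the FPKM filter. Of the 27 intervals only that of *Pax3* does not include 0.

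Markers of the cell types that use these factors were read in the same samples, because whole tissue was sequenced. All 12 cranial mesenchyme markers passed the filter, with summed levels of 519 to 591 FPKM in controls and 474 to 574 in mutants, which goes with the label of the tissue. Eye markers (14 genes) summed to 225 to 241 FPKM in controls and 165 to 326 in mutants, and forebrain and pituitary markers (10 genes) to 168 to 216 and 188 to 203, beside the low *Six3* and *Six6*. Epithelial markers (8 genes) summed to 91.4 to 148 and 94.5 to 119 FPKM and cranial ganglion markers (9 genes) to 87.2 to 121 and 96.4 to 104. In these 5 lists 0 genes reached an unadjusted p of 0.05, and the median log2 differences of their genes that passed the filter were -0.081 (mesenchyme), -0.12 (eye), -0.0090 (forebrain and pituitary), -0.19 (epithelium) and 0.065 (ganglion). Among the eye genes *Atoh7*, a factor of retinal neurons, was at -0.32, and the pigment cell genes *Dct*, *Mitf*, *Pmel* and *Tyrp1* were at -0.17, -0.11, -0.12 and 0.11. The groups did not overlap for *Atoh7*, lower in mutants, and for *Tyrp1*, higher in mutants. Neither gene passed the filter, and the share of all genes without overlap was counted only among genes that passed it. In the forebrain and pituitary list *Lhx6*, *Foxd1* and *Nkx2-2* were at -0.096, 0.14 and 0.22. The largest part of its sum was *Dlx1*, with a control mean of 74.7 FPKM. Whether the genes of this list came from forebrain cells in this tissue was not tested, so the sum does not measure forebrain content. No gene of any list was at 0 in all samples.

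Skeletal muscle markers (11 genes) summed to 154, 390 and 240 FPKM in controls and 149, 222 and 171 in mutants, with all 11 log2 differences below 0 (median -0.40 over the 6 that passed the filter) and 0 past an unadjusted p of 0.05. Control 2 was the highest sample for the muscle, epithelial and mesenchyme sums and for *Eya2*, *Eya3* and *Eya4*. Neuronal markers (6 genes) summed to 577 to 684 FPKM in controls and 712 to 824 in mutants, with a median log2 difference of 0.21. *Map2* (0.32) and *Tubb3* (0.34), of the neuronal cytoskeleton, and *Elavl3* (0.23), a neuronal RNA-binding protein, were higher at an unadjusted limma p of 0.05 but not after adjustment. Otic markers (6 genes) summed to 1.07 to 6.23 FPKM in controls and 10.4 to 29.9 in mutants. *Oc90*, a protein of the otoconia, made up most of the sum in control 2 and the mutants, at 0.0829, 5.04 and 0.0631 FPKM in controls and 25.4, 10.2 and 8.38 in mutants (log2 difference 2.88, SE 0.716, adjusted p by limma 1.0). *Oc90* and *Otol1* (0.29) were the 2 otic genes past an unadjusted p of 0.05. *Oc90* passed the filter, and of the 10061 genes that did so 1.66% were past that threshold. *Otol1* did not pass the filter and was read from the fit of 23063 genes, of which 2.87% passed that threshold. Mutant 1 was the highest sample for the otic sum and for *Six2*, *Six4*, *Six5* and *Eya1*. The part of these cell types in the values of the 9 genes was not tested.

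Across the 6 samples some members followed each other. Pearson's r of log2(FPKM + 1) was 0.93 for *Eya2* and *Eya4*, 0.86 for *Six4* and *Eya1* and -0.97 for *Six3* and *Eya3*. The linked pairs *Six2* and *Six3* and *Six6* and *Six4* were at 0.75 and 0.40. The genes nearest to each member among the filtered table were *Tug1* (0.998) and *Mest* (0.994) for *Six2*, *Acd* (0.999) and *Ttyh3* (0.997) for *Six3*, *Dcp1a* (0.982) and *Vcpip1* (0.978) for *Six4*, *Smad1* (0.999) and *Ept1* (0.987) for *Six5*, and *Dnalc1* (0.988) and *Auts2* (0.987) for *Six6*. For *Eya1* they were *Srp54b* (0.988) and *E130218I03Rik* (0.983), for *Eya2* *Esrp1* (0.996) and *Adam19* (0.989), for *Eya3* *Tjp1* (0.999) and *Nbas* (0.994), and for *Eya4* *Otud7b* (0.994) and *Alx4* (0.991). With 6 points, of which replicate 1 of each group stood apart, such values are common: between 8 genes (*Eya1*) and 259 genes (*Eya3*) of the table lay above 0.95.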

How the data were processed

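Poly(A)+ RNA of 3 control and 3 mutant samples, described in the methods as independent biological replicates, was made into stranded libraries and sequenced on 1 platform. The submitters' processing notes name FastQC 0.11.4, STAR, Cuffdiff and GRCm38. The annotation and the step that assigned reads to genes are not given in the sources used here. The authors deposited FPKM values for 38553 genes per sample, in single tables and a joint table with the same values (0 differences). FPKM keeps no read counts. The methods state only an approximate range of reads per sample, and no count test was run because whole reads could not be recovered.

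Following the threshold of the methods, genes above 5 FPKM throughout the controls or throughout the mutants were tested on log2(FPKM + 1) with limma 3.58.1 (R 4.3.3), using its intensity trend and no covariate. Adjusted p-values (Benjamini-Hochberg) cover every gene tested. Members outside the filter came from a fit without it. Single genes were also compared by a two-sided exact permutation test (SciPy 1.17.1). The fit was tested on simulated data with independent noise, of the same size for every gene, and with changes larger than those of the members. That test does not cover samples that stand apart, as replicate 1 did, or differences as small as those of the members.

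Across genes, the deviations of same-numbered samples from their group means correlated at 0.64 (number 1), 0.26 (number 2) and 0.51 (number 3). From these values and not from the labels, the replicate block paired the samples by number. The main fit, with its standard errors and intervals, was unpaired. Control 3 with mutant 2 (0.40) and control 2 with mutant 3 (0.23) were of like size, and pairs of a replicate 1 with another number lay between -0.68 and -0.37, so the pairing mainly sets replicate 1 apart. The members and lists were chosen with earlier results of these data known. The rule for named genes took the members, *Rbfox2*, *Pax3*, the 3 genes of the smallest p per list with a mean FPKM over 1, and the 2 genes most correlated with each member. Other genes, *Six3os1*, *Tubb3*, *Otol1*, *Pmel*, *Tyrp1* and *4930447C04Rik*, were chosen after their values or positions were seen. GENCODE for GRCm38 held 95.0% of the identifiers. Alternatives were the pseudocount, 2 scalings, 2 filters, no trend, the replicate block, a term for replicate 1, a covariate of Y-linked genes, replicates 2 and 3 only, and each sample left out.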

Additional observations from a re-analysis of the deposited data

How the results depend on the processing

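Genes past the adjusted threshold of 0.05 (0) became 3 with a term for the first replicates, 4 with replicates 2 and 3 only and 0 to 5 when each sample was left out, with 5 without mutant 3. The count past an unadjusted p of 0.05 (167) became 286 with a mean FPKM over 1, 663 with no filter, 604 with the replicate block, 611 with the term for the first replicates, 1130 with replicates 2 and 3 only, and 78 (without control 2) to 690 (without control 1) when each sample was left out. The members past it (0) became 3 with replicates 2 and 3 only and 0 to 1 with a sample left out. The replicate block changed no call among the members. It lowered the SE from 0.235 to 0.0924 for *Six2* and from 0.211 to 0.0995 for *Six3*, while that of *Six4* went from 0.136 to 0.138. Their median log2 difference lay between -0.13 and 0.0085 with a sample left out. Directions turned for *Six4* with quantile normalization (0.0096), for *Six2* (-0.031), *Six3* (-0.24) and *Eya3* (0.082) with the Y-linked covariate, which also moved *Six5* from -0.10 to -0.34 and *Eya4* from -0.15 to -0.039, and for *Six2* (-0.043) and *Eya1* (-0.11) with replicates 2 and 3 only. With each sample left out the log2 differences ranged from -0.19 to 0.25 for *Six2*, -0.12 to 0.23 for *Six3*, -0.12 to 0.090 for *Six4*, -0.27 to 0.0085 for *Six5*, -0.16 to -0.088 for *Six6*, -0.057 to 0.12 for *Eya1*, -0.18 to -0.057 for *Eya2*, -0.14 to 0.072 for *Eya3* and -0.27 to -0.068 for *Eya4*. The cause of these moves was not tested. With 3 samples per group and no read counts, the intervals give the only measure of precision.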
